A study of Homo sapiens with 4 samples.

Results

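Ribosome biogenesis factors are the proteins that transcribe ribosomal RNA, modify and cleave it, and fold it with ribosomal proteins into the small and large subunits. The 40 factors described here were taken as a list of gene symbols, each matched by name to the features of the deposited expression tables, and all 40 were found among 20457 features. The cells were HEK293, a widely used human embryonic kidney line. Cells given a negative control siRNA (siControl, 2 libraries, genotype labelled WT) were compared with cells given siRNA against CNOT4 (siCNOT4, 2 libraries, labelled CNOT4 knockdown), both at 10 nM for 72 h. CNOT4, a RING-finger E3 ligase found with the CCR4-NOT deadenylase, was depleted to ask whether it takes part in how codon choice affects expression. The libraries were poly(A)-selected with a stranded kit. Nothing in the labels says that replicates came from separate cultures, so the p-values measure only the spread between these libraries.

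Ribosome production starts in the nucleolus, where RNA polymerase I copies the ribosomal DNA into a long precursor. Small nucleolar RNAs guide its chemical modification: box C/D particles built on fibrillarin methylate ribose, and box H/ACA particles built on dyskerin convert uridine to pseudouridine. Large protein assemblies then fold and cut the precursor, chiefly the small subunit processome and a series of pre-60S particles. Many of the genes are known targets of the transcription factor MYC, which binds the DNA hexamer CACGTG (an E-box).

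The promoters are shown first, because the hexamer is a sequence feature that members could share and that played no part in choosing them. RefSeq promoter windows (GRCh38.p14, 250 bases before to 50 after each start, 300 in all) were found for 34 of the 40 genes. The palindrome CACGTG, which reads alike on both strands and was the only motif searched, occurred in 13 of these 34 genes (38.2%). It occurred in 12.6% of the 10045 tested features with a window and in 8.77% of all 27305 genes with one. Counted by window, it occurred in 13 of 42 member windows (31%) and in 7.26% of all 35116 windows. The sequences printed here are 5′ to 3′ on the strand of the gene, with the hexamer in capitals, for 6 of the 13 members that hold it, those that the rule for giving values per library picked out.
FBL: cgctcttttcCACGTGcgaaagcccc
GNL3: cttcagttcaCACGTGgcgccagcgg
NOP10: aattgacgaaCACGTGacgcggtcgg
DDX21: ccgggtgtccCACGTGgtccccggcg
WDR43: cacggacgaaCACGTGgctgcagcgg
UTP20: tttttccgtcCACGTGacccactcag
They lie at chr19:39846358-39846383 (minus strand) for *FBL*, chr3:52686028-52686053 (plus) for *GNL3*, chr15:34343132-34343157 (minus) for *NOP10*, chr10:68956606-68956631 (plus) for *DDX21*, chr2:28894660-28894685 (plus) for *WDR43* and chr12:101280085-101280110 (plus) for *UTP20*. The hexamer begins 31 bases before the annotated start in *DDX21*, 11 before it in *NOP10* and 10 before it in *UTP20*. *NOP10* holds another copy, not printed, that begins 170 bases before the start. In *FBL* and *GNL3* it begins at base 7 of the transcript, and in *WDR43* at base 4. The 13 genes that hold it had a median log2 fold change of 0.056, and the 21 that do not had 0.026. *FBL*, the only member called lower, holds it and *UTP3*, the only member called higher, does not. With another scaling of the libraries, TMM, explained below, *FBL* was not called. The 3 members then called lower, *DKC1*, *PPAN* and *UBTF*, do not hold it. Below the median of all tested features lay 12 of the 13 genes that hold it and 18 of the 21 that do not. A link between the hexamer and the fold change was not tested. A match is a string of letters and not a measured binding site.

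Values are TPM, read abundances corrected for gene length and scaled by the authors to the same total of 1000000 in each library, so each value is a share of that library's RNA. The tables hold no read totals, so the depth behind a value is unknown here. In such bulk samples, fewer cells that express a gene and less of its RNA per cell cannot be told apart. Fold changes are on the log2(TPM + 1) scale and understate the change of low genes. They were tested with limma in the 14208 features whose TPM averaged 1 or more, which all 40 members passed, and p-values were adjusted over all of these features (Benjamini-Hochberg, threshold 0.05).

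Before the results, 3 facts of the whole series bear on every value below. The targeted *CNOT4* transcript measured 6.43 and 4.73 TPM in siControl against 3.38 and 3.81 in siCNOT4, and its log2 fold change of -0.51 did not pass the test (limma adjusted p 0.184). All tested features shifted upward in siCNOT4 by a median of 0.50, and relative to it the *CNOT4* change was -1.01. Replicate 2 of siControl stood apart from the other libraries: replicate 1 exceeded it in 79.9% of tested features, by a median of 0.38, while the siCNOT4 replicates differed by a median of -0.030. Of the HEK293-expressed markers, *NEFL* and *LIN28B* were well above 1 TPM in all libraries and *NEFM* was below 1 TPM. The 6 markers of other lineages reached at most 0.255 TPM. They summed to 0.109 and 0.105 TPM in siControl against 0.506 and 0.806 in siCNOT4, and any part of this in the results was not tested.

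The members are well expressed. Mean TPM over the 4 libraries ran from 16.0 for *UTP20* to 2090 for *NPM1*, with a median of 75.3, against a median of 19.3 over all tested features. *NPM1*, *FBL* and *NCL* stood above the other 37 (the plot of TPM by library). All 40 together took 0.913% and 0.946% of the TPM in siControl and 0.848% and 0.849% in siCNOT4. Both siCNOT4 libraries were therefore lower, with group means of 0.929% ± 0.0236 and 0.849% ± 0.000827 (SD, n = 2 each). The difference of -0.0806 percentage points had an exact two-sided permutation p of 0.333, the smallest that 2 libraries against 2 allow. Without *NPM1*, *NCL* and *FBL*, the other 37 took 0.421% and 0.376% in siControl and 0.385% and 0.404% in siCNOT4, and these ranges overlapped.

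**Figure D1:**
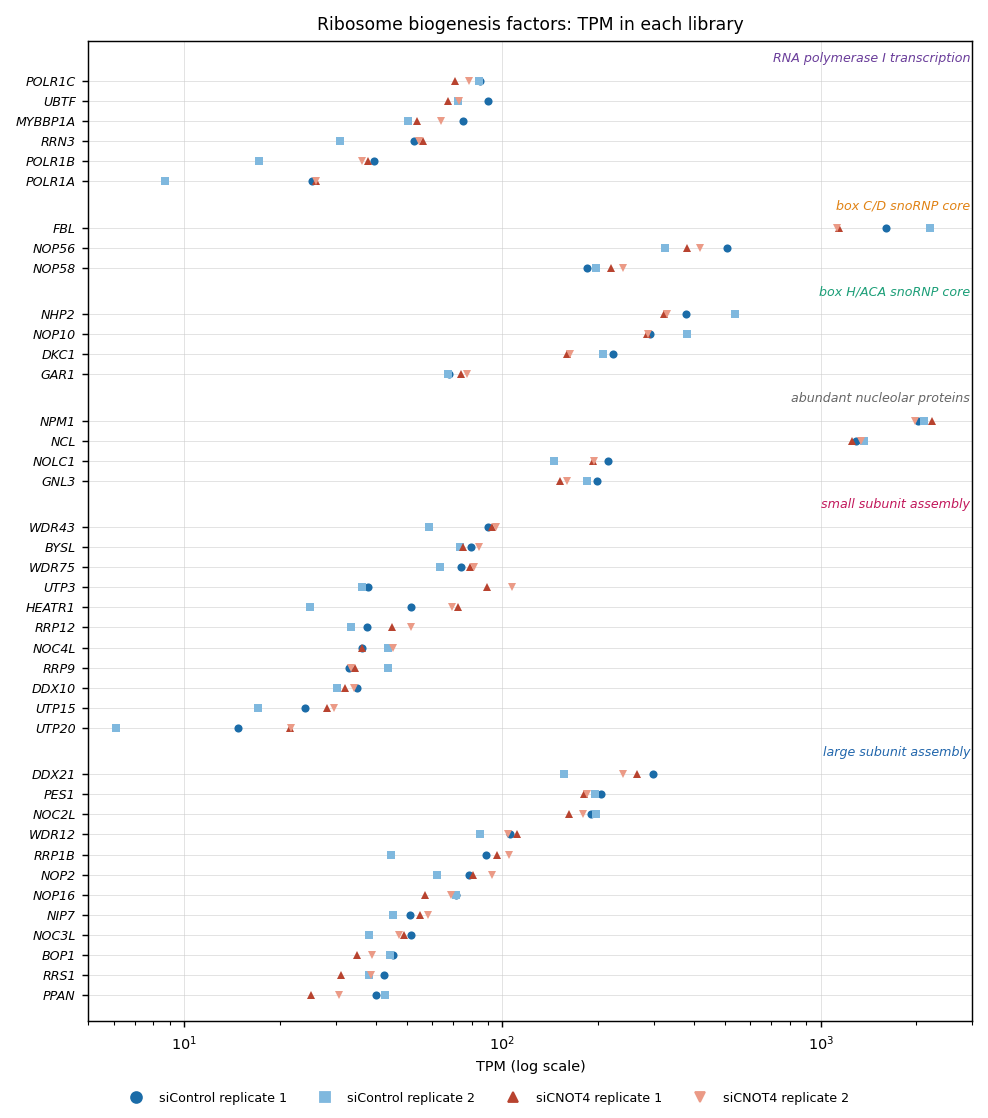
TPM (log axis) of each of the 40 members in the 4 libraries, grouped by role and ordered by mean within a role. The marks of siControl replicate 2 (light squares) lie to the left of the others for long genes such as POLR1A and UTP20 and to the right for FBL and NHP2, while the siCNOT4 replicates (triangles) lie close together.

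In siCNOT4, 1 member rose (*UTP3*) and 1 fell (*FBL*), while 38 did not pass the test. Of all tested features, 12.6% were called: 11.3% higher and 1.3% lower (1608 and 184, against 690 and 641 with TMM factors, which scale libraries by a trimmed mean of log ratios). The members' share was thus below that of all features, at 5%. At an unadjusted p under 0.05 there were 7 members (3 higher, 4 lower), where 42% of all features passed. The median log2 fold change of the members was 0.041, compared with 0.50 for all features and 0.41 for the 7819 features with a mean TPM at least that of the lowest member, of which 9.64% were called. Relative to the median of all features, 35 of 40 members lay below, and those above were *UTP3*, *UTP20*, *HEATR1*, *POLR1A* and *RRP1B*. That number was also 35 after TMM scaling and without siControl replicate 2, 36 after removal of length and GC trends, and 29 after quantile normalization. Unshifted, 17 members had a negative fold change and 23 a positive one, where 81.2% of all features were positive, but after TMM scaling 35 members were negative and 5 positive (*UTP3*, *UTP20*, *HEATR1*, *POLR1A* and *RRP1B*). Any other positive fold change of a member thus turned negative with that scaling. Against siControl replicate 1 alone the median of the members was -0.012, and against replicate 2 alone 0.19.

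The number of members called depended on the processing, as did the share of all features called. After TMM scaling 4 members (10%) were called, 1 higher and 3 lower, against 9.37% of all features (4.86% higher, 4.51% lower). After quantile normalization 6 (15%) were called, 1 higher and 5 lower, against 15.3% (7.11% higher, 8.23% lower). After removal of length and GC trends 16 (40%) were called, 1 higher and 15 lower, against 25.6% (11.9% higher, 13.7% lower). In these settings *UTP3* was the 1 member called higher. *UTP3* alone was called with a mean TPM of at least 5, with no filter and with a pseudocount of 0.1, against 1.29%, 4.6% and 3.93% of all features. With the replicate block 3 were called, against 25.7%. None was called by limma without siCNOT4 replicate 1 or without siCNOT4 replicate 2, against 3.35% and 3.17%, and at an unadjusted p under 0.05 there were 2 and 3. Without siControl replicate 2 the count was 13 (57.5% of all features), and without siControl replicate 1 it was 26 (79.6%).

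Groups did not overlap in 25 members. Both siCNOT4 libraries were above both siControl libraries in 14 of 40 members (35%), against 66.4% of all tested features. Both were below in 11 of 40 (27.5%), against 10.6%. Among the 7819 features with a mean TPM at least that of the lowest member, the shares were 62.9% above and 13.9% below. The 11 lower members were *FBL*, *PPAN*, *NHP2*, *DKC1*, *GNL3*, *BOP1*, *NOP10*, *NOP16*, *NOC2L*, *POLR1C* and *PES1*. Exons of 13 of the 40 members overlap another listed feature, so reads could be shared with it. Among the lower members these are *PPAN*, *NHP2*, *DKC1*, *GNL3*, *NOP16*, *NOC2L*, *POLR1C* and *PES1*. The rest are *HEATR1*, *NIP7*, *UTP15*, *NOP56* and *MYBBP1A*. A feature on the same strand is overlapped in *PPAN*, *DKC1*, *GNL3* and *NOP56*. Of the 14 higher members, 7 belong to small subunit assembly, and none of the 11 lower members does. These 7 are 63.6% of the 11 members of that role, near the 66.4% of all features, and no test was made between roles.

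**Figure D2:**
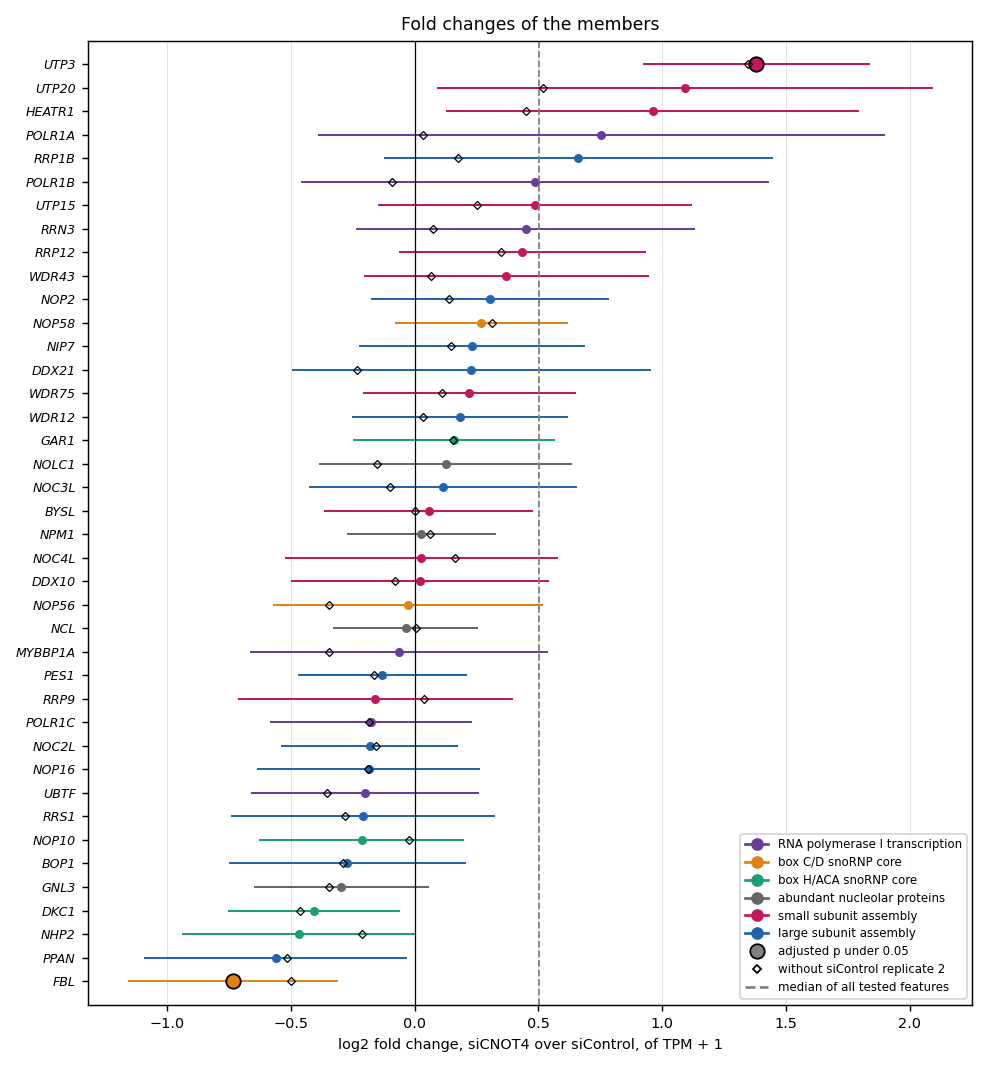
Log2 fold change of siCNOT4 over siControl for each member (filled circles, coloured by role) with its 95% limma interval, beside the value without siControl replicate 2 (open diamonds). The dashed line is the median of all tested features at 0.50. UTP3 at 1.38 and FBL at -0.73 are the members with an adjusted p under 0.05.

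*UTP3*, a component of the small subunit processome, showed the highest fold change of the members. It measured 37.9 and 36.1 TPM in siControl against 89.7 and 106.9 in siCNOT4, so the groups were far apart and the siControl replicates close. The siCNOT4 replicates differed by -0.25 on the log2 scale. Group means were 37.0 ± 1.27 and 98.3 ± 12.1 (SD, n = 2 each), a ratio of 2.66. The log2 fold change was 1.38 (SE 0.19, 95% interval 0.92 to 1.84, limma adjusted p 0.0234). Relative to the median of all features it was 0.88, and after TMM scaling 0.86 (limma adjusted p 0.0497). Leaving out a siControl library changed it little (1.41 without replicate 1, 1.35 without replicate 2). The call ended without siCNOT4 replicate 1 (limma adjusted p 0.0503) or without siCNOT4 replicate 2 (0.162), and the adjusted p ranged from 6.51e-05 to 0.162 over the alternatives. The gene lies on chromosome 4 (70688479 to 70690551, plus strand, GRCh38, GENCODE 29), has 1 exon, and overlaps no exon of another listed feature. *RRS1*, which acts in large subunit assembly, is the other member with 1 exon, and its TPM of 42.4 and 38.2 in siControl overlapped 31.0 and 38.7 in siCNOT4.

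*FBL* encodes fibrillarin, the methyltransferase of box C/D particles. It measured 1603 and 2215 TPM in siControl against 1142 and 1123 in siCNOT4. The siCNOT4 pair lay below the siControl pair, whose replicates themselves differed by more than the siCNOT4 pair. Group means were 1909 ± 433 and 1132 ± 13.5, a ratio of 0.593, and the log2 fold change was -0.73 (SE 0.17, 95% interval -1.16 to -0.31, limma adjusted p 0.0475). Against siControl replicate 1 alone the value was -0.50, and against replicate 2 alone -0.97. The call was close to the threshold. It ended after TMM scaling (-1.26, limma adjusted p 0.0815), after quantile normalization (-0.42, 0.0565) and in 5 other alternatives named in the closing section, with adjusted p from 6.07e-05 to 0.259 over all alternatives. The gene lies on chromosome 19 (39834458 to 39846414, minus strand).

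The other core proteins of the box C/D particle did not pass the test, and no test was made between them and *FBL*. All 3 core genes lay below the median of all features. *NOP56* had 507 and 325 TPM in siControl and 381 and 417 in siCNOT4, so its groups overlapped. *NOP58* had 185 and 197 against 220 and 240, and both siCNOT4 libraries were above. Their log2 fold changes were -0.028 and 0.27 (limma adjusted p 0.929 and 0.191). The exons of *NOP56* overlap 6 small RNA features of the tables, so reads could be shared with them. For *NOP56* the sign depended on the siControl library: the fold change was -0.35 without siControl replicate 2 and 0.29 without replicate 1. After TMM scaling the fold changes were -0.55 for *NOP56* and -0.26 for *NOP58*, beside -1.26 for *FBL*.

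The box H/ACA core had 3 members lower and 1 higher, with the groups apart in all 4, and none passed the limma test (2 at an unadjusted p under 0.05). Of all tested features, 10.6% were apart with siCNOT4 lower and 66.4% with siCNOT4 higher, and 42% had an unadjusted limma p under 0.05. *DKC1* encodes dyskerin, the pseudouridine synthase. It measured 223 and 206 TPM in siControl against 160 and 163 in siCNOT4, or -0.41 on the log2 scale (SE 0.14, limma adjusted p 0.0868). Here the siControl replicates were close, and after TMM scaling the value was -0.93 with a limma adjusted p of 0.0432. *NHP2*, which binds the guide RNA, had 377 and 539 TPM against 322 and 328 (-0.47, limma adjusted p 0.118), and *NOP10*, the smallest member, had 291 and 380 against 286 and 287 (-0.21, 0.344). In both genes siControl replicate 2 was far above the other 3 libraries, and without it the values were -0.21 and -0.023. *GAR1*, needed for catalysis, had 68.0 and 67.6 against 73.9 and 77.6, a log2 fold change of 0.16. *NHP2* shares exon sequence with *RMND5B* on the other strand, whose use in the authors' counting is not given in the sources used here.

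**Figure D3:**
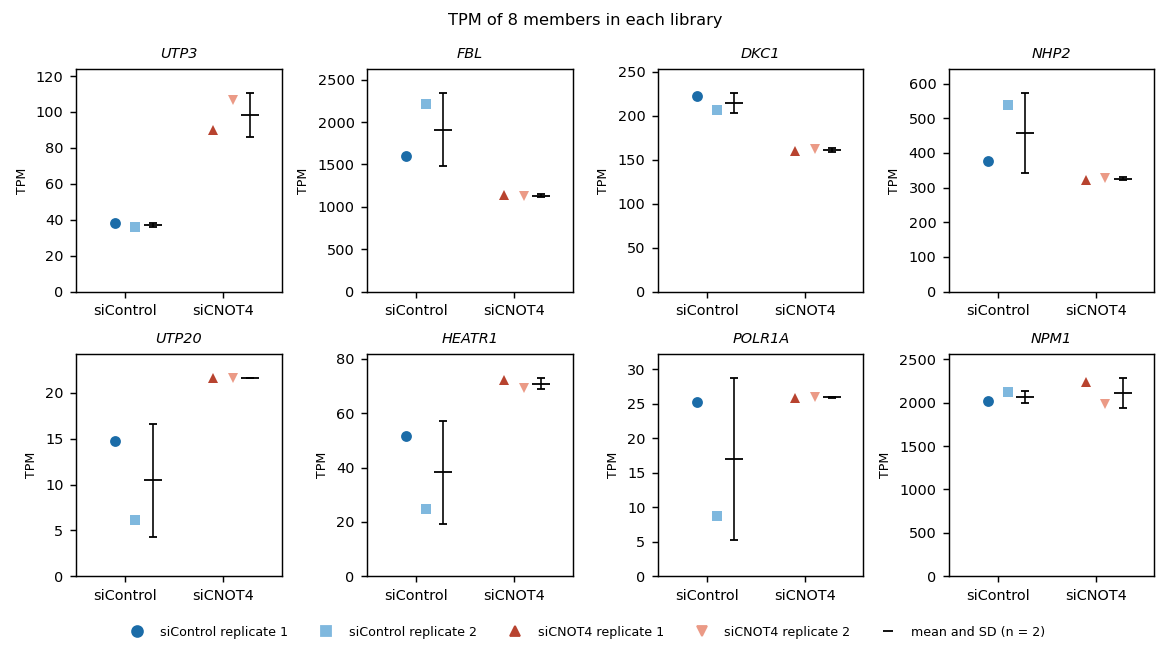
TPM of 8 members in each library (linear axes from 0), with the mean and SD of each group (n = 2) beside the points. UTP3 is higher in both siCNOT4 libraries with close siControl replicates, FBL, DKC1 and NHP2 are lower in both, and in UTP20, HEATR1 and POLR1A siControl replicate 2 is far below the other 3 libraries.

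None of the 4 abundant nucleolar proteins was called by limma (0 at an unadjusted p under 0.05). *NPM1*, a histone and ribosome chaperone and the most abundant member, had 2019 and 2119 TPM in siControl and 2235 and 1987 in siCNOT4. *NCL* (nucleolin), an RNA-binding protein of the nucleolus, had 1294 and 1367 against 1252 and 1344. In both genes the groups overlapped, and the 95% intervals of the log2 fold change were -0.27 to 0.32 for *NPM1* and -0.33 to 0.25 for *NCL*. *NOLC1*, a chaperone of small nucleolar particles, had 214 and 146 against 192 and 193. *GNL3* (nucleostemin), a nucleolar GTPase, had 198 and 184 against 152 and 159, with both siCNOT4 libraries lower (log2 fold change -0.30, limma adjusted p 0.162). After quantile normalization *GNL3* was called at -0.47 (limma adjusted p 0.0483). All 4 lay below the median of all features. Direction followed the scaling here: *NPM1* was -0.50 after TMM scaling and 0.35 after quantile normalization, and *NCL* was -0.56 and 0.23.

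RNA polymerase I genes showed the widest gap between the siControl replicates of the 6 roles, with a median difference of 0.66 over 6 genes, and limma called none of them (0 at an unadjusted p under 0.05). *POLR1A*, the largest subunit of the enzyme, had 25.3 and 8.68 TPM in siControl and 25.9 and 25.9 in siCNOT4. Replicate 1 of siControl thus lay beside the siCNOT4 libraries and replicate 2 alone was low. *POLR1B*, the second largest subunit, had 39.6 and 17.2 against 37.8 and 36.3, the same arrangement. *RRN3*, the initiation factor that brings the polymerase to the promoter, had 52.6 and 30.9 against 56.4 and 54.5. Log2 fold changes were 0.75 for *POLR1A* (SE 0.47, limma adjusted p 0.250), 0.49 for *POLR1B* (0.351) and 0.45 for *RRN3* (0.251). Without siControl replicate 2 they were 0.034, -0.092 and 0.074. Pseudogene copies of *RRN3* are listed at low values, with means of 5.95 TPM for *RRN3P1* and 2.65 for *RRN3P3*, and reads could be shared with them.

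*POLR1C*, a subunit shared with RNA polymerase III, measured 85.1 and 84.3 TPM in siControl against 71.2 and 78.7 in siCNOT4 (log2 fold change -0.18, limma adjusted p 0.430). Without siControl replicate 2 its value was also -0.18, where *POLR1A* had 0.034 and *POLR1B* -0.092. After TMM scaling the values were -0.70 for *POLR1C*, 0.26 for *POLR1A* and -0.019 for *POLR1B*. Differences between subunits were not tested. *UBTF*, which packages active ribosomal DNA, had 89.9 and 72.6 against 67.4 and 73.0. It was not called (-0.20, limma adjusted p 0.423) but was after TMM scaling (-0.72, 0.0455) and after quantile normalization (-0.53, 0.0467). *MYBBP1A*, a nucleolar MYB-binding protein, had 75.1 and 50.4 against 53.8 and 64.3, and its groups overlapped.

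Small subunit assembly genes had a median log2 fold change of 0.37 over 11 members, the highest of the 6 roles, and *UTP3* was the 1 that passed the test. That median was still below the 0.50 of all features, with 8 of the 11 genes below it, and it was 0.16 against siControl replicate 1 alone and 0.52 against replicate 2 alone. *UTP20*, a very large scaffold protein, had 14.8 and 6.11 TPM in siControl and 21.6 and 21.6 in siCNOT4. *HEATR1* (UTP10 in yeast), another large scaffold, had 51.6 and 24.9 against 72.4 and 69.4. In both genes the siCNOT4 libraries were above both siControl libraries, and siControl replicate 2 was less than replicate 1. The log2 fold changes were 1.09 for *UTP20* (SE 0.41, limma adjusted p 0.101) and 0.96 for *HEATR1* (SE 0.34, 0.0907). Without siControl replicate 2 they were 0.52 and 0.45, with limma adjusted p of 0.00658 and 0.00555, where 57.5% of all features were called and the lone siControl library is assumed to vary like the siCNOT4 pair. After removal of length and GC trends they were 0.20 and 0.070. Exons of *HEATR1* overlap *LGALS8* on the other strand, which itself had 14.7 and 9.07 TPM in siControl and 42.9 and 46.3 in siCNOT4 (log2 fold change 1.86, limma adjusted p 0.0259).

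Further members of the early processome subcomplex that holds *HEATR1* had smaller values. *WDR43* had 90.1 and 58.8 TPM in siControl and 93.1 and 95.7 in siCNOT4 (log2 fold change 0.37, limma adjusted p 0.257). *WDR75* (0.22) and *UTP15* (0.49) also had both siCNOT4 libraries above both siControl libraries. Without siControl replicate 2 the values were 0.066 for *WDR43*, 0.11 for *WDR75* and 0.25 for *UTP15*. *RRP12*, which acts late in 40S maturation and export, had 37.7 and 33.3 against 45.1 and 51.7 (log2 fold change 0.44, limma adjusted p 0.150). Its siControl replicates were close, and without siControl replicate 2 the value was 0.35. The groups of *RRP9* (a U3 small nucleolar particle protein), *NOC4L* and *BYSL* (both of 40S precursors) and the helicase *DDX10* overlapped, with fold changes from -0.16 to 0.056.

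Large subunit assembly genes had a median log2 fold change of -0.0080 over 12 members, with none called by limma (1 at an unadjusted p under 0.05, *PPAN*). The PeBoW complex, needed for processing of the large subunit RNA, consists of PES1, BOP1 and WDR12. *PES1* had 205 and 195 TPM in siControl and 180 and 185 in siCNOT4, and *BOP1* had 45.2 and 44.2 against 34.9 and 38.9, both lower in siCNOT4. *WDR12* had 105 and 85.3 against 111 and 104, and its groups overlapped. Log2 fold changes were -0.13, -0.27 and 0.18 (limma adjusted p 0.480, 0.307 and 0.437). *BOP1* was called after quantile normalization at -0.70 (limma adjusted p 0.0444).

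*PPAN*, a factor of pre-60S assembly, was the lowest of the large subunit genes. It measured 40.1 and 42.8 TPM in siControl against 25.0 and 30.7 in siCNOT4 (log2 fold change -0.56, SE 0.22, limma adjusted p 0.106). After TMM scaling it was -1.07 with a limma adjusted p of 0.0472. Its exons are shared with the readthrough feature *PPAN-P2RY11*, which had 23.1 and 24.8 TPM against 15.0 and 18.3, so the division of reads between them is uncertain. *DDX21*, an RNA helicase that acts on polymerase I transcripts and small nucleolar RNAs, was the most abundant gene of this role. It had 297 and 156 TPM against 265 and 240, and the sign of its fold change (0.23) turned to -0.24 without siControl replicate 2. *RRP1B*, a nucleolar protein of ribosomal RNA processing, had 88.8 and 44.8 against 95.8 and 105, a log2 fold change of 0.66 that was 0.18 without siControl replicate 2. The other 6 genes of this role had fold changes from -0.21 to 0.30. They are *NOC2L* and *NOC3L*, partners in transport of pre-60S particles, *NOP2*, a ribosomal RNA methyltransferase, and *NOP16*, *NIP7* and *RRS1*, which act in 60S assembly.

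The difference between the siControl replicates varied with gene length. Coding length, stop codon included, ran from 195 nt in *NOP10* to 8358 nt in *UTP20* (median 1776 nt). In the 10 members with the longest coding sequences (2403 nt or more), siControl replicate 1 exceeded replicate 2 in 10 of 10, by a median of 0.50. In the 10 shortest (1272 nt or less) it did so in 6 of 10, with a median difference of 0.0058. The Spearman rho of coding length across the 40 members was 0.703 with the difference between the siControl replicates and 0.093 with that between the siCNOT4 replicates. With the group difference it was 0.489, and without siControl replicate 2 it was 0.182. Over 12901 tested features with a coding sequence the 4 values in the same order were 0.510, 0.031, 0.332 and 0.147. With transcript length in place of coding length they were 0.834, 0.263, 0.619 and 0.255 across the members. Over the 12901 features they were then 0.660, 0.167, 0.402 and 0.164. These are descriptions across genes that share the same 4 libraries. Median log2 fold changes were 0.37 in the longest 10 and -0.18 in the shortest 10, and 0.073 and -0.10 without siControl replicate 2.

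**Figure D4:**
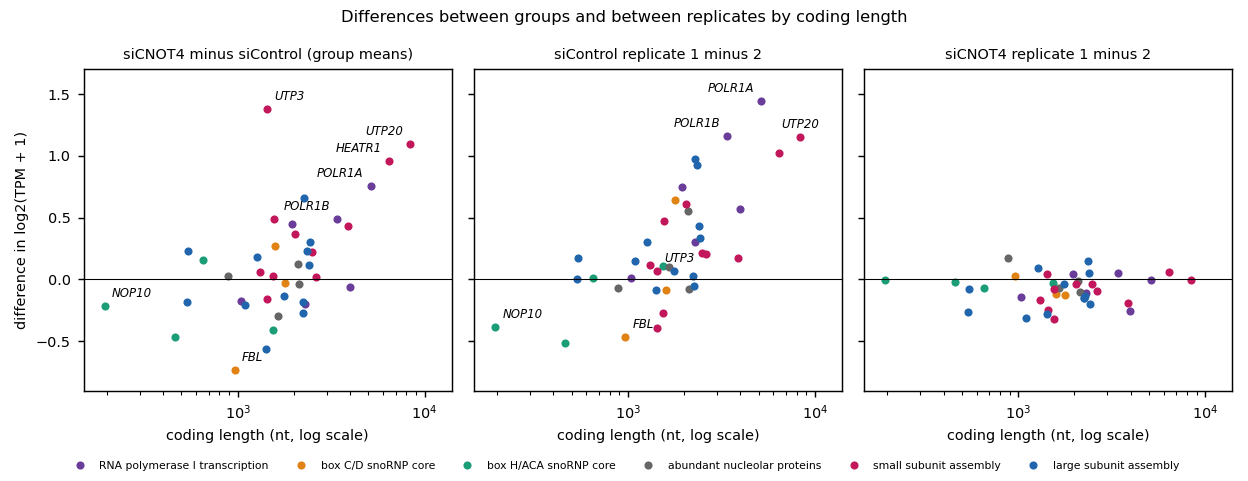
Difference in log2(TPM + 1) against coding length (log axis) for the 40 members: siCNOT4 minus siControl group means (left), siControl replicate 1 minus 2 (middle) and siCNOT4 replicate 1 minus 2 (right). POLR1A, POLR1B and UTP20 are high in both the left and the middle panel, UTP3 is high in the left panel alone, and the right panel is flat.

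GC3, the percentage of codons with G or C at the last position, ran from 32.6% in *GAR1* to 86.3% in *NOC4L*. Across the members its Spearman rho with the group difference was -0.450. It was -0.219 with the difference between the siControl replicates and -0.528 with that between the siCNOT4 replicates, so replicates of 1 group varied with GC3 as well. Over 12897 features the corresponding values were -0.338, -0.303 and -0.466. The called members are of middling GC3, 46.9% for *UTP3* and 58.1% for *FBL*.

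Among 122 other genes of the pathway, 4 rose and 1 fell (4.1%), again fewer than the 12.6% called of all features. After TMM scaling 10 were called, all lower, against 4.51% of all features called lower. Of the 5 genes called before, *NHP2L1* alone was still called. Those that rose were *GNL2* (0.99, limma adjusted p 0.0252), a GTPase of pre-60S particles, the helicases *DDX52* (0.90, 0.0479) and *DDX24* (0.80, 0.0439), and *ZNF622* (0.82, 0.0474), which acts late in pre-60S maturation. *GNL2* had 119.3 and 106.6 TPM in siControl and 222 and 228 in siCNOT4. The gene that fell, listed as *NHP2L1* and now named *SNU13*, encodes the protein that first binds box C/D guide RNAs. It had 304 and 309 TPM in siControl and 201 and 217 in siCNOT4 (log2 fold change -0.55, limma adjusted p 0.0494). After TMM scaling the 4 that rose had log2 fold changes of 0.47 for *GNL2* (limma adjusted p 0.115), 0.38 for *DDX52* (0.120), 0.27 for *DDX24* (0.257) and 0.29 for *ZNF622* (0.471). After removal of length and GC trends 33 of 121 were called, 1 higher and 32 lower, against 25.6% of all features (11.9% higher, 13.7% lower). Without such scaling or removal, the median of the 122 was 0.27, and 85 of them lay below the median of all features. By role, 0 of 10 polymerase I genes, 1 of 8 snoRNP genes, 1 of 50 small subunit genes and 3 of 54 large subunit genes were called. At an unadjusted limma p under 0.05, 4 of the 10 polymerase I genes passed, 3 of them higher, where 42% of all features passed.

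Cytosolic ribosomal proteins, the cargo of these factors, had a lower median log2 fold change than the factors themselves. Of 78 tested, 21 were called, all lower, against 1.3% of all features called lower. Their median log2 fold change was -0.54, where the biogenesis members had 0.041, and the siControl replicates differed by a median of -0.32 in the ribosomal protein genes and 0.16 in the members. After TMM scaling 4 of 78 were called, all lower, against 4.51% of all features called lower. After quantile normalization 1 was called higher and 8 lower, against 7.11% and 8.23% of all features. The sign of the fold change turned in 22 of the 78 with that normalization. With a mean TPM of at least 5 none was called by limma (55 at an unadjusted limma p under 0.05), against 1.29% of all features. The difference between these 2 lists was not tested.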

How the data were processed

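The authors deposited TPM values, 1 table per library, for 20457 gene symbols. The submitters' processing notes name FastQC 0.11.2, STAR 2.5.3a, featureCounts and the hg19 build. Annotation, gene lengths and strand setting are not given in the sources used here. Groups came from sample titles.

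From log2(TPM + 1), limma 3.58.1 (R 4.3.3; lmFit, eBayes with trend, prior degrees of freedom 4.22) compared 2 libraries against 2 with no covariates. The step was tested on simulated data. Alternatives were a pseudocount of 0.1, no filter, a mean TPM of at least 5, TMM factors (written out as a script with the usual trims), quantile normalization, removal of loess length and GC trends, a replicate block, and leaving out each library. Lengths, GC3 and positions came from GENCODE 29 (GRCh38, not the authors' build): 18438 symbols matched directly, 965 by a synonym, and 1054 did not match.

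Members and lists were chosen with earlier results of these data known. Values per library were given for called members, the 6 highest and 6 lowest fold changes, the 6 most abundant and the most abundant of each role. Other members were added after their values were seen. Of the other pathway lists, the 3 highest and 3 lowest called genes were to be named, which covered all 5. Gene roles are background knowledge.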

Additional observations from a re-analysis of the deposited data

How the results depend on the processing

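The number of called features, 1792, was 3525 after trend removal, 3655 with the replicate block, 147 at a mean TPM of at least 5, 908 with no filter, 558 with a pseudocount of 0.1, and 450 to 11311 when each library was left out. For the 40 members the count of 2 was 4 after TMM scaling (*UTP3* higher, *DKC1*, *PPAN* and *UBTF* lower), 6 after quantile normalization, 16 after trend removal (1 higher, 15 lower), 1 under each of the filter alternatives and the pseudocount of 0.1, and 0 to 26 when each library was left out: 0 by limma without siCNOT4 replicate 1 or without replicate 2 (2 and 3 at an unadjusted p under 0.05), 13 without siControl replicate 2 and 26 without siControl replicate 1. *UTP3* was called in all of these but those without a siCNOT4 library. *FBL* lost its call with a mean TPM of at least 5, no filter, a pseudocount of 0.1, TMM scaling, quantile normalization and without either siCNOT4 library. The median of the members, 0.041, was -0.48 after TMM scaling, -0.41 after trend removal and -0.16 after quantile normalization. It ranged from -0.012 to 0.19 when each library was left out. Of all features, 9.37% were called after TMM scaling, 15.3% after quantile normalization, 25.6% after trend removal and 25.7% with the replicate block. The shares were 1.29% at a mean TPM of at least 5, 4.6% with no filter and 3.93% with a pseudocount of 0.1. The counts that follow are out of 122 other pathway genes and 78 ribosomal proteins (79 with no filter). Among other pathway genes the 5 calls became 10 (TMM, all lower), 14 (quantile normalization), 33 (trend removal), 13 (replicate block), 1 (either filter, and a pseudocount of 0.1) and 0 to 86 (leaving out libraries; the 0 by limma without siCNOT4 replicate 1 or 2, with 6 and 5 at an unadjusted p under 0.05). For ribosomal proteins the 21 calls became 4 (TMM), 9 (quantile normalization and a pseudocount of 0.1), 52 (trend removal), 53 (replicate block), 0 (limma, mean TPM of at least 5; 55 at an unadjusted p under 0.05), 3 (no filter) and 1 to 70 (leaving out libraries). *CNOT4* passed at -0.93 (TMM), -0.93 (trend removal), -1.15 (quantile normalization) and without siControl replicate 2, the range without single libraries being -0.70 to -0.32. The difference in the members' share was -0.0806 percentage points. With each library's share divided by its TMM factor the difference was -0.424. Values divided in this way are no longer shares of a library's RNA, so the 2 differences cannot be compared as changes in share. Scaling a whole library by 1 factor leaves the members' share of it unchanged.

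The sign of the fold change turned in 18 of the 40 members after TMM scaling, 19 after trend removal and 13 after quantile normalization. Of the 19 members picked by the rule for values per library, those whose sign turned under any alternative are given here. After TMM scaling, *NPM1* was -0.50, *DDX21* -0.30, *WDR43* -0.15 and *POLR1B* -0.019. After trend removal they were -0.42, -0.55, -0.33 and -0.12, and *POLR1A* was -0.013. After quantile normalization *NCL* was 0.23 and *POLR1B* -0.013. Leaving out single libraries gave -0.087 to 0.015 for *NCL*, -0.35 to 0.29 for *NOP56*, -0.058 to 0.11 for *NPM1*, -0.24 to 0.69 for *DDX21* and -0.092 to 1.07 for *POLR1B*. The cause was not tested.

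Deviations of same-numbered libraries from their group means correlated at 0.171 over 14208 features. With 2 pairs and no label on the numbers, they share only a number. The fit with the replicate block called 3 members (*UTP3*, *FBL* and *HEATR1*).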
